A study of Mus musculus with 6 samples.

Results

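The genes described are 7 members of the RAS, RAF, MEK and ERK cascade, *Hras*, *Nras*, *Araf*, *Braf*, *Map2k1*, *Map2k2* and *Mapk3*, found by their symbols among the 40166 genes of a count table. All 7 were in the table once, and all 7 were among the 15355 genes with enough counts to be tested. The table holds bulk RNA sequencing of 6 melanoma tumors grown under the skin of C57BL/6 mice from YUMM3.3, a BRAF-mutant mouse melanoma cell line. Of the 6 tumors, 3 came from mice given water as vehicle (0 mg/kg, replicates 7, 8 and 9) and 3 from mice given rigosertib (RGS) at 300 mg/kg (replicates 10, 11 and 12), in both groups by oral gavage in 100 µL on 5 days a week. Tumors were taken after 17 days of treatment, from young adult mice, and both groups carried tumors of the same line. The labels do not state that each replicate came from a separate mouse, so the p-values measure only the spread between these samples.

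RAS proteins are small GTPases at the inner face of the plasma membrane that switch between a GDP-bound and a GTP-bound form. GTP-bound RAS recruits RAF kinases to the membrane. RAF phosphorylates the MEK kinases, MEK phosphorylates ERK, and ERK phosphorylates kinases and transcription factors that drive growth and division. In melanoma the cascade is often switched on by a mutation in BRAF or NRAS. RGS has been described as a mimic of RAS that occupies the RAS-binding domain of effectors such as RAF. It therefore acts on proteins, while the values below are amounts of RNA, which do not show whether a kinase was phosphorylated. The counts do not separate a mutant from a wild-type *Braf* allele either.

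A whole tumor also holds cells of the mouse host, and in bulk RNA fewer cells of a type and less RNA per cell cannot be told apart. The libraries held 22793087 to 32555494 counts with vehicle and 13837932 to 21617368 with RGS, so the shallowest vehicle library still exceeded the deepest RGS library. Of 10 melanocyte lineage markers, *Tyr*, *Dct* and *Mlana* had 0 counts in all 6 libraries. The summed level of these 10 markers was 233 to 310 CPM (read counts scaled to a common library size after TMM adjustment) with vehicle and 198 to 222 CPM with RGS, and *Gpnmb* alone gave 189 to 302 CPM. Of the 10, 3 could be tested and 0 were called higher or lower. *Gpnmb* had a log2 fold change of -0.41 (edgeR adjusted p = 0.0508). The melanoma label of the tumors is thus not borne out by *Tyr*, *Dct* and *Mlana*. *Mitf*, another of the 10 markers, was detected in every library, at 74 to 261 counts. *Tyrp1*, *Pax3*, *Pmel* and *S100b* had at most 2, 18, 25 and 48 counts in any library. *Gpnmb* gave 97.5% to 97.9% of the summed level with vehicle and 94.0% to 98.0% with RGS. Of 18 leukocyte markers, 6 could be tested and 5 of them were higher with RGS. The sum of the 18 was 252 to 320 CPM with vehicle and 1037 to 1128 CPM with RGS, and *Laptm5* alone gave 60.6% to 68.4% of it with vehicle and 80.4% to 84.4% with RGS. Without *Laptm5* the sum was 99.3 to 101.4 CPM with vehicle and 176 to 203 CPM with RGS, and *Ptprc*, *Cd3e*, *Cd3g*, *Cd8a*, *Adgre1* and *Nkg7* had 0 counts in all 6 libraries. Of the 8 fibroblast markers, 1 was higher and 4 were lower with RGS, and their sum went from 404 to 601 CPM with vehicle to 294 to 321 CPM with RGS. Keratinocyte markers summed to 4.49 to 7.74 CPM with vehicle and 39.2 to 56.5 CPM with RGS. Of these 8 markers, 3 could be tested and 2, *Sfn* and *Ivl*, were higher. *Sfn* alone gave 68% to 90.4% of the sum with vehicle and 62.9% to 82.9% with RGS. *Krt1* and *Trp63* had 0 counts in all 6 libraries, and *Krt5*, *Krt14* and *Dsp* had at most 12 counts in any library. The sums for 8 endothelial markers (2.49 to 4.10 CPM with vehicle, 6.55 to 13.8 CPM with RGS), 6 skeletal muscle markers (2.88 to 4.42 CPM and 1.73 to 3.60 CPM) and 5 adipocyte markers (6.88 to 11.996 CPM and 6.30 to 14.8 CPM) were small. Among the tested genes of these lists, 1 of 4 endothelial and 1 of 2 muscle markers were higher, and none was lower. *Emcn* and *Erg* had 0 counts in all 6 libraries, and *Pecam1* had at most 22 in any library. The part of these cell types in the results below was not tested.

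Among the 7 genes, *Map2k2* and *Mapk3* were higher with RGS, none was lower, and *Hras*, *Nras*, *Araf*, *Braf* and *Map2k1* did not pass the test. *Map2k2*, which encodes the kinase MEK2, rose by 1.998-fold. *Mapk3*, which encodes ERK1, rose by 1.39-fold. The quasi-likelihood test of edgeR, with p-values adjusted by the Benjamini-Hochberg method across the 15355 genes and a threshold of 0.05, called 5036 genes, or 32.8% of those tested. Higher calls made up 16.3% of the tested genes (2503) and lower calls 16.5% (2533). The 2 genes called, both higher, are 28.6% of the 7, against the 32.8% called in either direction and the 16.3% called higher among all genes. The median log2 fold change was 0.13 over the 7 genes and -0.05 over all tested genes. When counts were scaled by library size alone, the median over all genes moved by -0.14 on the log2 scale, the higher and lower calls became 1870 and 3152 (37.2% of calls higher), and only *Map2k2* among the 7 was called.

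**Figure D1:**
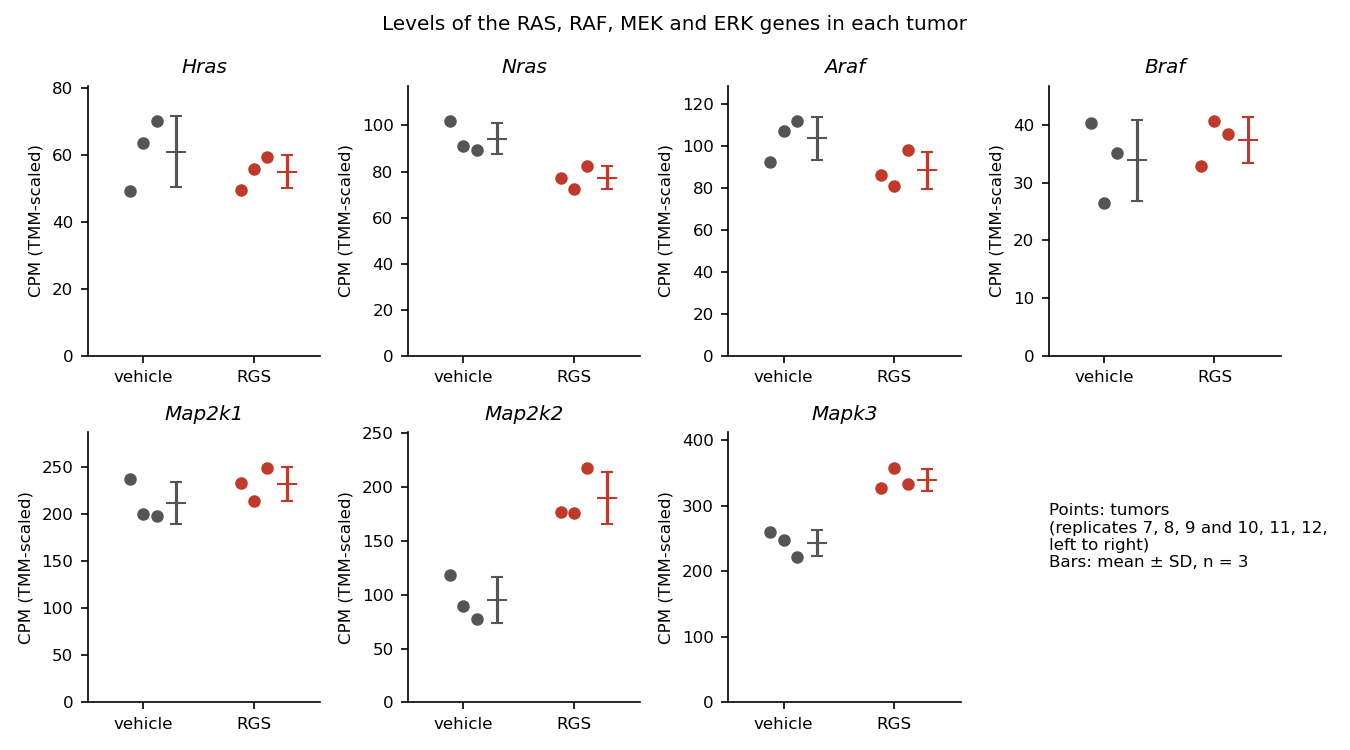
TMM-scaled CPM of each gene in each tumor, with 1 panel per gene and the vertical axis starting at 0; points are the 3 vehicle tumors (grey) and the 3 RGS tumors (red), and bars give the mean ± SD (n = 3). The RGS points lie above all vehicle points for *Map2k2* and *Mapk3* and below them for *Nras*, and the groups overlap for the other genes.

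The 2 RAS genes come first in the cascade. *Hras* (chr7:141189105-141194005, minus strand, GRCm38) was at 49.2, 63.4 and 70.0 CPM in the vehicle tumors and at 49.5, 55.8 and 59.3 CPM in the RGS tumors. All RGS values fell inside the vehicle range. The means were 60.9 ± 10.6 and 54.9 ± 4.94 CPM (SD, n = 3), a log2 fold change of -0.15 (SE 0.18, 95% interval -0.53 to 0.23) with an edgeR adjusted p of 0.564. *Nras* (chr3:103058285-103067914, plus strand) was at 101.8, 91.2 and 89.4 CPM with vehicle and at 77.1, 72.3 and 82.4 CPM with RGS. Here the 3 RGS values all lay under the lowest vehicle value, but the difference did not pass the threshold. The means were 94.2 ± 6.72 and 77.3 ± 5.02 CPM, with a log2 fold change of -0.29 (SE 0.16, interval -0.62 to 0.04, edgeR adjusted p = 0.177) that turned to 0.02 with an offset for GC content.

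The coding sequences of *Hras* and *Nras* have 189 codons each in the GENCODE transcripts. The longest run of identical bases between the 2 transcripts is 23 bases, shorter than the 150-base reads. Within each tumor, the ratio of *Hras* to *Nras* in TPM (counts per kilobase of gene, scaled to the same sum over all genes in every tumor) was 0.690, 0.993 and 1.12 with vehicle and 0.918, 1.10 and 1.03 with RGS. The groups overlapped, and the difference in log2 ratio was 0.15 (two-sided exact permutation test, p = 0.7). It turned to -0.40 with an offset for GC content, and the groups still overlapped. With 3 tumors against 3, no exact p can be smaller than 0.1.

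The other RAS genes of the table that are described here are *Rras2*, *Rras* and *Mras*, close relatives of the classical RAS genes. *Rras2* was at 208.8, 208.04 and 221 CPM with vehicle and at 122, 139 and 129.7 CPM with RGS, with no overlap. It fell by 0.71 on the log2 scale (SE 0.15, edgeR adjusted p = 0.00113). *Rras* averaged 101.1 ± 9.44 CPM in vehicle tumors and 127 ± 8.39 CPM in RGS tumors (log2 fold change 0.33, edgeR adjusted p = 0.113), and *Mras* at 63.3 ± 9.88 and 60.9 ± 5.98 CPM (log2 fold change -0.06, edgeR adjusted p = 0.840). Thus *Rras2* is the one RAS gene described here that passed the test.

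RAF kinases take the signal from RAS. *Araf* (chrX:20797814-20860519, plus strand) was at 92.2, 106.9 and 112 CPM with vehicle and at 86.3, 80.8 and 98.0 CPM with RGS. The lowest vehicle tumor lay below the highest RGS tumor, so the groups overlapped. The means of 104 ± 10.1 and 88.4 ± 8.78 CPM gave a log2 fold change of -0.23 (SE 0.16, interval -0.57 to 0.11, edgeR adjusted p = 0.296). *Braf* (chr6:39603237-39725463, minus strand), the gene that is mutated in this line, was at 40.2, 26.4 and 35.04 CPM with vehicle and at 32.9, 40.6 and 38.4 CPM with RGS. These values were interleaved. The means were 33.9 ± 7.01 and 37.3 ± 3.96 CPM, with a log2 fold change of 0.14 (SE 0.20, interval -0.29 to 0.56, edgeR adjusted p = 0.651) that was -0.01 when scaled by library size alone. In TPM, *Araf* exceeded *Braf* by 4.86, 8.59 and 6.76 times with vehicle and by 5.56, 4.22 and 5.41 times with RGS. The size of these ratios rests on the gene lengths used, 6541 bases for *Araf* and 13862 for *Braf*. The ratios overlapped, with a log2 difference of -0.38 (two-sided exact permutation test, p = 0.3). The strand setting of the counting is not given in the sources used here. *Araf* shares 9 exonic bases with *Syn1* and *Braf* shares 146 with *Ndufb2*, each on the opposite strand, so reads over those bases could not be told apart without strand.

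MEK1 and MEK2, the products of *Map2k1* and *Map2k2*, are the kinases that phosphorylate ERK, and they were the one pair of paralogs here whose ratio did not overlap between the groups. *Map2k1* (chr9:64185770-64253631, minus strand) was at 238, 201 and 198 CPM with vehicle and at 233, 214 and 249.6 CPM with RGS. The groups overlapped. The means were 212 ± 22.2 and 232 ± 17.9 CPM, and the log2 fold change of 0.13 (SE 0.15, interval -0.19 to 0.44, edgeR adjusted p = 0.555) became -0.02 with library size alone. *Map2k2* (chr10:81105915-81133975, plus strand) was at 118, 89.3 and 77.7 CPM with vehicle and at 177, 176 and 218 CPM with RGS. The lowest RGS tumor was well above the highest vehicle tumor. The means were 95.1 ± 20.9 and 190.1 ± 24.1 CPM, a 1.998-fold rise (95% interval 1.55 to 2.58; log2 fold change 0.999, SE 0.18, edgeR adjusted p = 0.000246). It stayed past the threshold with each tumor left out in turn, at log2 fold changes of 0.87 to 1.19, and with an offset for GC content, which lowered it to 0.59.

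Within each tumor, *Map2k1* exceeded *Map2k2* in TPM by 3.36, 3.76 and 4.27 times with vehicle and by 2.21, 2.03 and 1.91 times with RGS. The size of this ratio rests on the gene lengths used, 3391 bases for *Map2k1* and 5663 for *Map2k2*. These need not be the lengths of the transcripts present. The difference between the groups in log2 ratio was the same without length scaling. The groups did not overlap, and the log2 ratio was 0.88 lower with RGS (two-sided exact permutation test, p = 0.1, the smallest p that 3 tumors against 3 allow). A ratio within a tumor does not depend on the scaling factor of its library, and with any 1 tumor left out the difference was between -0.97 and -0.80. It does depend on GC content, which differs between the genes (51.2% in *Map2k1*, 60.4% in *Map2k2*). With the GC offset the difference shrank to -0.55, and the ratios of 3.16, 3.30 and 3.69 with vehicle and 2.38, 2.39 and 2.15 with RGS still did not overlap.

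**Figure D2:**
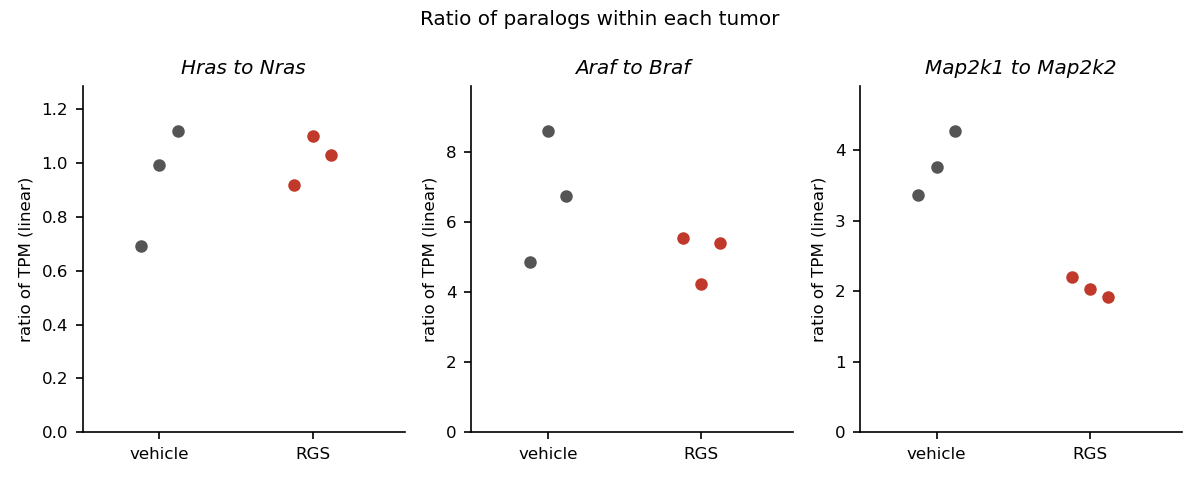
Ratio of TPM between paralogs within each tumor, on linear axes that start at 0, for *Hras* to *Nras*, *Araf* to *Braf* and *Map2k1* to *Map2k2*; points are single tumors, vehicle in grey and RGS in red. The *Map2k1* to *Map2k2* ratio is 3.36 to 4.27 in the vehicle tumors and 1.91 to 2.21 in the RGS tumors, while the other ratios overlap.

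The MEK genes share a run of identical bases within their coding sequences. The longest run of bases that their GENCODE transcripts share is shown, since reads confined to it could not be assigned to one gene.
Map2k1 and Map2k2: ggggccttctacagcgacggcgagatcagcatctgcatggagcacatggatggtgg
This run has 56 bases and lies within both coding sequences, which have 393 codons (*Map2k1*) and 401 codons (*Map2k2*). It is shorter than a read of 150 bases. The promoters of the pair are shown because the genes moved differently. They come from RefSeq (GRCm38.p6), are read 5′ to 3′ toward the gene, leave out any exon, and have the GC box GGGCGG in capitals on either strand.
Map2k1, chr9:64253632-64253855, minus strand: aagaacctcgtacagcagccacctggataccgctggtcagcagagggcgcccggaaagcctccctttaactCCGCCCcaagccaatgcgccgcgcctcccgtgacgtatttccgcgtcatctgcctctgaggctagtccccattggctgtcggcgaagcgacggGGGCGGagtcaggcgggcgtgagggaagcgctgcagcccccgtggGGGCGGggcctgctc
Map2k2, chr10:81105665-81105914, plus strand: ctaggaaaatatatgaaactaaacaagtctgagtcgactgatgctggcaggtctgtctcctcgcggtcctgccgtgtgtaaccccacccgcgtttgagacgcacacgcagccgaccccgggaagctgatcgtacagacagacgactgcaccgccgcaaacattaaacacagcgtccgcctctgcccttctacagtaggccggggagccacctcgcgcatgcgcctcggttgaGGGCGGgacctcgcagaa
Over the full 250 bases before the start, exon bases included, *Map2k1* held 4 GC boxes and *Map2k2* held 1. The stretch shown for *Map2k1* ends 27 bases before the start and does not hold all 4. Of 27025 mouse promoters of this length, 32.9% hold at least 1. Other motifs were searched in the same windows on both strands. The cAMP response element TGACGTCA, in 1.62% of promoters, occurred 2 times in *Braf*. The E-box CACGTG, in 6.05%, occurred once in *Nras*, and the ETS core CCGGAAG, in 7.05%, occurred in none of the 6 members with a promoter entry. These are matches of letters and say nothing of binding.

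*Mapk3* (chr7:126759601-126765819, plus strand) encodes ERK1, a kinase at the end of the cascade. It was at 261, 248 and 222 CPM with vehicle and at 327, 358 and 334 CPM with RGS, and every RGS tumor was above every vehicle tumor on this scale. The means were 244 ± 20.0 and 339.6 ± 16.5 CPM, a 1.39-fold rise (95% interval 1.13 to 1.73; log2 fold change 0.48, SE 0.15, edgeR adjusted p = 0.0171). The call did not hold in every setting. With an offset for GC content the log2 fold change was 0.13 and did not pass (edgeR adjusted p = 0.508). The call was also lost without vehicle replicate 8 (edgeR adjusted p = 0.0578), vehicle replicate 9 (0.0666), RGS replicate 11 (0.0969) or RGS replicate 12 (0.0515), at log2 fold changes of 0.42 to 0.51, so that 1 of the 7 genes was then called in place of 2. With library size alone the log2 fold change was 0.34 (edgeR adjusted p = 0.1004). In TPM, which carries no TMM factor, the *Mapk3* groups overlapped, at 289 to 423 with vehicle and 393 to 459 with RGS.

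With counts thinned to the total of the smallest library, so that depth no longer differed between the groups, *Map2k2* had a log2 fold change of 1.01 (edgeR adjusted p = 0.000122) and *Mapk3* one of 0.48 (edgeR adjusted p = 0.0175). Over the 7 genes, the 3 tumors of each group did not overlap in *Nras*, *Map2k2* and *Mapk3*. This is 42.9% of the 7 genes, against 45.8% of all tested genes.

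Fold changes moved with the GC content of the transcripts across all genes. Spearman's rho between them was 0.22 over 15326 genes, given as a description, since genes are not independent replicates. When the tested genes were cut into 10 bins of equal size by GC content, the median log2 fold change was -0.48 in the lowest bin and 0.36 in the highest. *Map2k2* (60.4% GC) lay in the highest bin, of whose genes 27.8% were called higher, and *Mapk3* (57.6% GC) in bin 9, where the median was 0.24 and 26.5% were called higher. An offset for GC content, chosen after the data had been seen, lowered *Map2k2* to 0.59 (SE 0.16), still past the threshold (edgeR adjusted p = 0.0106). *Mapk3* no longer passed with it, as given above. Under the same offset *Braf* (42.6% GC) was at 0.45 (edgeR adjusted p = 0.116), *Hras* (55.2% GC) at -0.39 (edgeR adjusted p = 0.114), *Araf* at -0.06 and *Map2k1* at 0.04. *Map2k2* is therefore the one member of the cascade whose call held with the offset.

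**Figure D3:**
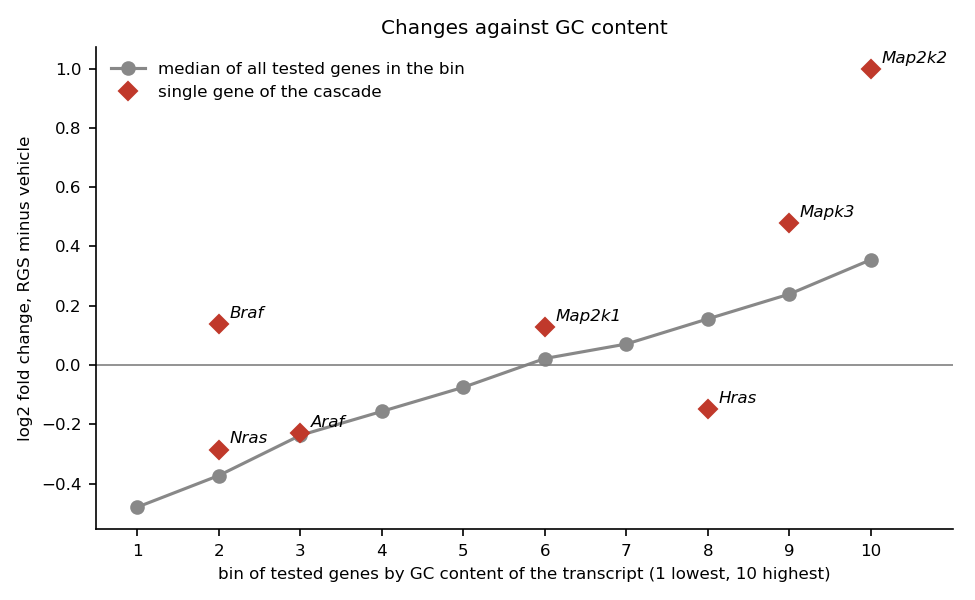
Log2 fold change (RGS minus vehicle) against 10 equal bins of tested genes ordered by transcript GC content; the grey line joins the medians of all tested genes in each bin and red diamonds are the 7 genes. The medians climb from -0.48 to 0.36, *Araf* and *Nras* lie near the line, and *Map2k2* lies farthest above it.

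**Figure D4:**
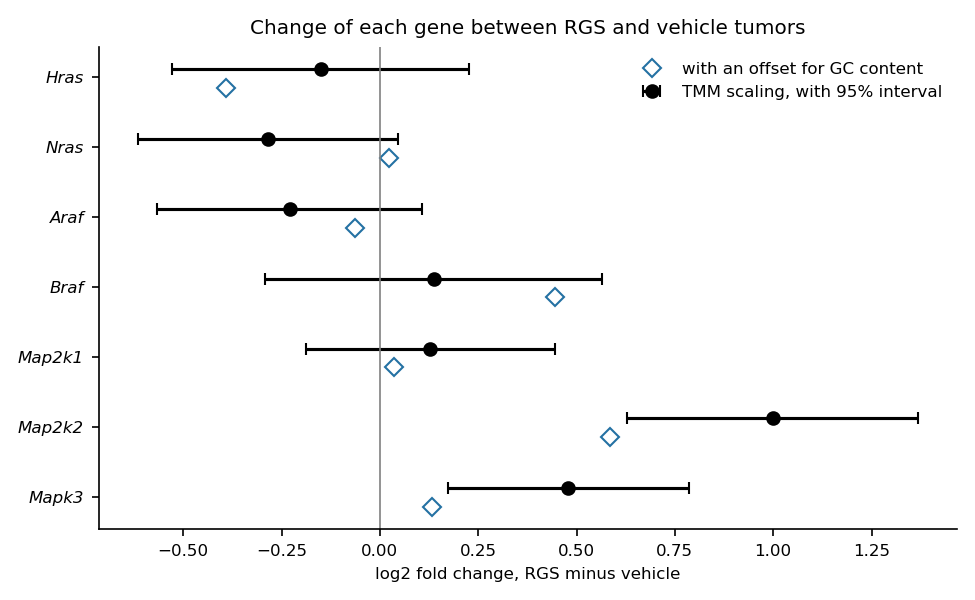
Log2 fold change of each of the 7 genes (RGS minus vehicle) with its 95% interval under TMM scaling (black) and its value with an offset for GC content (open blue diamonds). The intervals of *Map2k2* and *Mapk3* lie above 0, and the offset moves *Mapk3* from 0.48 to 0.13.

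Levels can be compared between genes only per length, in TPM. The gene lengths used need not be those of the transcripts present, and the order below rests on them. With vehicle the order was *Mapk3* (357 ± 67.1), *Map2k1* (208 ± 44.1), *Nras* (58.4 ± 10.5), *Map2k2* (56.1 ± 18.5), *Hras* (53.0 ± 4.07), *Araf* (51.7 ± 1.59) and *Braf* (8.09 ± 2.28). Neighbours from *Nras* to *Araf* overlapped, while *Mapk3*, *Map2k1* and *Braf* stood apart. With RGS the order was *Mapk3* (434 ± 35.5), *Map2k1* (197 ± 15.7), *Map2k2* (96.3 ± 6.41), *Hras* (42.2 ± 0.991), *Nras* (41.8 ± 2.89), *Araf* (38.9 ± 2.77) and *Braf* (7.74 ± 0.634). *Map2k2* had moved out of the overlapping group to a place of its own, at 89.7 to 102 TPM, and *Hras*, *Nras* and *Araf* still overlapped. On this scale, unlike in CPM, the RGS tumors were below all vehicle tumors for *Hras* (41.2 to 43.2 against 48.3 to 55.5) and *Araf* (35.7 to 41.0 against 50.2 to 53.4) too. TPM rests on the sum over all genes and was not tested. With the gene lengths used (13862 bases for *Braf*), *Braf* was the lowest of the 7 genes per length in both groups.

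The genes around the cascade were taken from 6 lists of 92 genes, of which 89 were tested, 28 were higher (31.5%) and 16 were lower (18.0%) with RGS, against 16.3% higher and 16.5% lower among all tested genes. The lower share is thus close to that of all genes. The lists were chosen with earlier results of these data known, and their shares were not tested against those of all genes. The first list holds 12 adaptors, exchange factors and GTPase activators that control RAS at receptors, of which 3 were higher (25%) and 1 lower (8.33%, median log2 fold change -0.07). *Nf1*, encoding neurofibromin, which returns RAS to its GDP-bound form, rose from 36.8 ± 7.48 to 70.1 ± 8.79 CPM (log2 fold change 0.93, SE 0.19, edgeR adjusted p = 0.000961). *Grb2*, the adaptor that brings SOS to receptors, rose from 96.8 ± 4.10 to 179 ± 19.0 CPM (log2 fold change 0.89). *Rasa2*, another GTPase activator, fell by 0.81 on the log2 scale. The higher count became 5 without vehicle replicate 7. The lower count became 0 without vehicle replicate 8 and 2 without vehicle replicate 9 or RGS replicate 10.

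The second list holds 10 genes for lipid modification, membrane delivery and turnover of RAS, of which 2 were higher (20%) and 3 lower (30%, median -0.24). *Icmt*, which methylates the prenylated end of RAS, rose from 66.0 ± 13.6 to 147 ± 16.0 CPM (log2 fold change 1.16, SE 0.18, edgeR adjusted p = 5.36e-05). *Zdhhc9*, a palmitoyltransferase subunit, was at 27.6 ± 6.55 and 40.7 ± 3.49 CPM (edgeR adjusted p = 0.0464). *Lypla1*, a thioesterase, fell by 1.19 on the log2 scale, and *Fnta*, the alpha subunit of farnesyltransferase, fell by 0.943. Enzymes of this list therefore went in both directions. The count of higher genes became 1 without vehicle replicate 8 or 9 or any of the RGS replicates 10, 11 and 12.

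Scaffolds and regulators of RAF, MEK and ERK made up the third list, with 21 of 23 genes tested, 7 higher (33.3%) and 5 lower (23.8%, median 0.06). *Ywhag*, encoding a 14-3-3 protein, a family that binds phosphorylated RAF, rose from 393 ± 79.0 to 863 ± 24.3 CPM (log2 fold change 1.13, SE 0.16, edgeR adjusted p = 3.05e-05). The 14-3-3 genes of the list went in both directions. *Ywhab*, *Ywhah* and *Ywhaz* were also higher, *Ywhaq* did not pass, and *Ywhae* fell (log2 fold change -0.81, edgeR adjusted p = 0.000351). *Ppp2r1a*, the scaffold subunit of protein phosphatase 2A, rose by 0.93 on the log2 scale, from 218 ± 19.1 to 413 ± 32.1 CPM. *Ppp1cb*, a catalytic subunit of the phosphatase that frees RAF from 14-3-3, fell by 1.29 on the log2 scale, from 265 ± 26.1 to 108 ± 23.2 CPM. *Paqr3*, which tethers RAF to the Golgi, fell by 1.59, from 7.10 ± 1.26 to 2.34 ± 0.598 CPM. Without RGS replicate 11 or RGS replicate 12 the higher count was 4.

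Downstream of ERK, 12 substrate kinases and ETS factors were all tested, and 7 were higher and 2 lower with a median of 0.56. This is 58.3% higher and 16.7% lower, against 16.3% and 16.5% among all tested genes. *Ets2*, an ETS transcription factor that ERK phosphorylates, was at 47.8, 41.6 and 33.75 CPM with vehicle and at 100.2, 93.95 and 71.1 CPM with RGS (log2 fold change 1.11, SE 0.19, edgeR adjusted p = 0.000182). *Rps6ka1*, which encodes the ERK-activated kinase RSK1, rose from 9.48 ± 2.82 to 19.8 ± 4.67 CPM (log2 fold change 1.06). *Ets1* fell by 0.56 on the log2 scale, and *Rps6ka5*, the gene of the kinase MSK1, fell by 0.84. The higher count was 4 with the GC offset, 4 with library size alone and 4 without RGS replicate 11. The lower count was 1 without RGS replicate 11 or 12.

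Transcripts known to respond to ERK activity formed a list of 20 genes, of which 7 were higher, 3 lower and 10 did not pass (median 0.28). The shares were 35% higher and 15% lower, the latter near the 16.5% of all tested genes. *Ier3*, an immediate early gene, was at 238, 219 and 215 CPM with vehicle and at 1113, 1392 and 1387 CPM with RGS (log2 fold change 2.53, SE 0.16, edgeR adjusted p = 1.25e-09). *Spred2*, a feedback inhibitor that brings neurofibromin to RAS, rose from 72.8 ± 16.8 to 194 ± 8.19 CPM (log2 fold change 1.41). *Egr1*, an immediate early transcription factor, moved the other way, at 272, 257 and 258 CPM with vehicle and at 75.1, 58.3 and 71.8 CPM with RGS, and fell by 1.94 on the log2 scale (edgeR adjusted p = 4.15e-08). *Epha4*, an ephrin receptor, was near the limit of detection, at 2.77, 2.10 and 1.03 CPM with vehicle and at 0, 0.377 and 0 CPM with RGS (edgeR adjusted p = 0.0308). Members of this list thus rose and fell by more than any of the 7 cascade genes did. Without vehicle replicate 7 the higher count was 11.

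Kinases of other MAPK modules, among them JNK, p38 and ERK5, gave 14 tested genes of 15, with 2 higher and 2 lower (14.3% each, median 0.16), near the shares of all genes. *Map2k7*, an upstream kinase of JNK, and *Mapk9*, which encodes JNK2, had log2 fold changes of 0.86 and 0.74. Of the p38 kinase genes, *Mapk12* fell by 1.32 and *Mapk13* fell by 0.90 on the log2 scale. The p38 genes *Mapk11* and *Mapk14* did not pass, at log2 fold changes of 0.13 and 0.22. The lower count was 1 without vehicle replicate 8, RGS replicate 10 or RGS replicate 11.

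**Figure D5:**
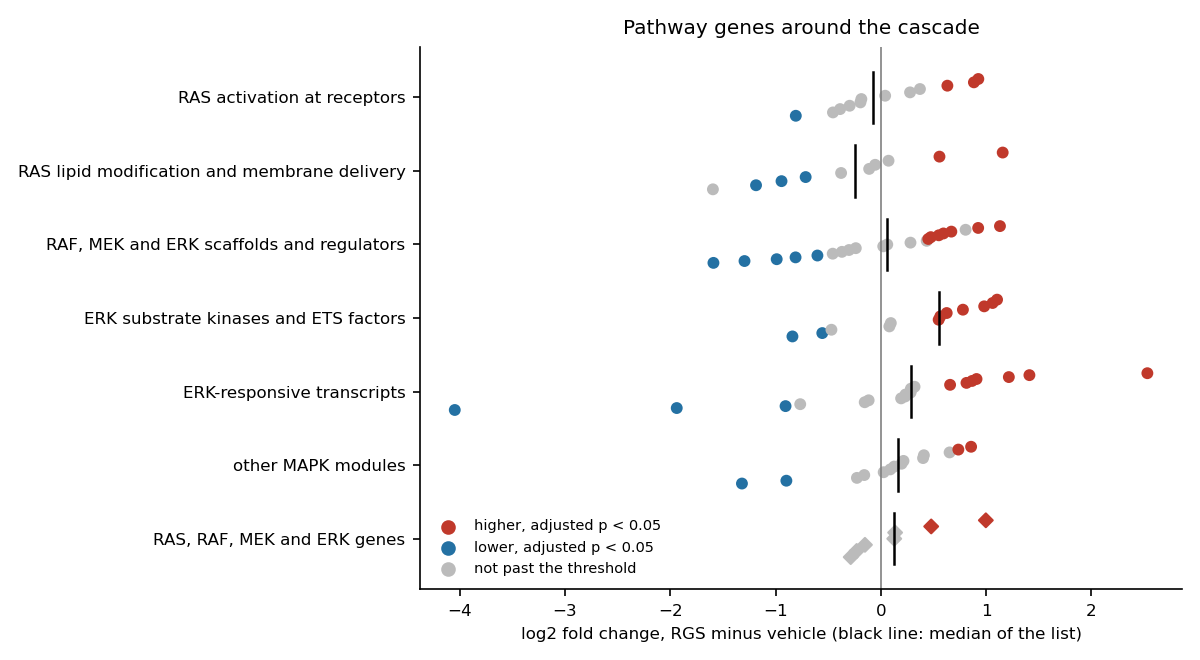
Log2 fold change (RGS minus vehicle) of every tested gene of the 6 lists (circles) and of the 7 cascade genes (diamonds); red genes were higher and blue genes lower at an edgeR adjusted p under 0.05, grey genes did not pass, and black lines are list medians. The median is 0.56 for the substrate kinases and ETS factors and 0.13 for the cascade genes.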

How the data were processed

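RNA from 3 vehicle and 3 RGS tumors was sequenced by the authors as paired-end reads of 150 bases. The submitters' processing notes name cutadapt 1.18, FastQC 0.11.7, STAR 2.7.1a, featureCounts 1.6.4 and mm10; strand setting and handling of multimapping reads are not given in the sources used here. The deposited values are raw read counts per gene, without normalization. From them, genes were kept where the median count of either group reached 5 (the study's filter), and edgeR 4.0.16 in R 4.3.3 gave TMM factors (0.920 to 1.08), CPM, and quasi-likelihood tests adjusted by Benjamini-Hochberg over 15355 genes. TPM used the gene lengths of the table. GC content and positions came from GENCODE M21, in which 38927 of 40166 identifiers were found, all with equal start and end. On simulated counts over 10 draws, the share of false calls was above its nominal level for both tools. It averaged 6.71% for edgeR (3.33% to 11.2%) and 18.7% for DESeq2. On average edgeR recovered 65.4% of the 2-fold differences put in and DESeq2 68.5%, so the rest were missed. The simulation changed 200 genes, far fewer than the 5036 called in the data. Its shares of false and recovered calls need not hold for the calls above.

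Samples were grouped by treatment label, and the labels name no batch. The members and lists were chosen with earlier results of these data known. The text names all 7 members, 3 further RAS genes, the nearest profiles, overlapping genes and markers at 0 counts. Of each pathway list it names up to 2 rising and 2 falling genes among those past the threshold with a mean of at least 1 CPM. *Gpnmb*, *Mitf*, *Sfn*, *Ivl*, *Krt5*, *Krt14*, *Dsp* and *Pecam1* were named after their values were seen. Other rows that the symbol rule matched, and 1 marker gene, are not reported here. Alternatives were DESeq2 1.42.0 (the study's tool), limma 3.58.1 voom with quality weights, robust dispersions, other scaling factors and filters, thinned counts, and each tumor left out. Replicates of a group differed by more than sampling noise (chi-square per degree of freedom 18.5 to 127). Total counts of 13837932 to 32555494 set a floor of 3 counts at 0.0856 to 0.226 CPM, which covers counting error only.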

Additional observations from a re-analysis of the deposited data

How the results depend on the processing

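No paired analysis was possible because the 2 groups share no replicate number. *Map2k2* kept its direction and its call in all 17 refits, while *Mapk3* lost its call with the GC offset (log2 fold change 0.13), with library size alone (0.34) and in 4 of the 6 refits that left out a tumor; the cause was not tested. *Nras* turned to 0.0231 with the GC offset, and *Braf* and *Map2k1* to -0.00721 and -0.0161 with library size alone; none of these 3 was called in any direction. The GC offset moved the log2 ratio difference to -0.40 for *Hras* to *Nras* and to -0.55 for *Map2k1* to *Map2k2*. Of the 7 cascade genes, 1 was called with the GC offset and 1 with library size alone. Asking also for a change of 1 or more on the log2 scale, up or down, left 0 of the 7 (*Map2k2*, at 0.999, missed it narrowly), and 1168 higher and 1450 lower genes overall. With each tumor left out in turn, 1 to 2 of the 7 genes were called, *Mapk3* was at 0.42 to 0.53, and 1776 to 2698 genes were higher and 1717 to 2551 lower.

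In the lists, counts moved as follows. With library size alone, the higher count was 4 for substrate kinases and ETS factors, 4 for scaffolds and regulators and 1 for lipid modification, and the lower count was 3 for RAS activation. With the GC offset the substrate kinases and ETS factors had 4 higher. With upper quartile factors, lipid modification had 1 higher and RAS activation 3 lower. With limma voom, the lower counts were 8 for scaffolds, 5 for lipid modification and 2 for RAS activation. Thinned counts left 1 lower gene in the other MAPK modules. With each tumor left out, substrate kinases and ETS factors had 4 to 7 higher and 1 to 2 lower, ERK-responsive transcripts 7 to 11 higher, scaffolds 4 to 7 higher, RAS activation 2 to 5 higher and 0 to 2 lower, lipid modification 1 to 2 higher, and other MAPK modules 1 to 2 lower.

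With 3 tumors a group, an interval such as that of *Braf* (-0.29 to 0.56) leaves room for changes that were not detectable here.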

Other observations

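For each of the 7 genes, the genes with the most similar profile over the 6 tumors were sought among 12239 tested genes with a mean of at least 1 CPM, by the root mean square difference of log2 CPM after centring each gene on its own mean. For *Map2k2* they were *Ank3*, which encodes the membrane scaffold ankyrin-G (difference 0.0359), and *Hdac6*, which encodes a tubulin deacetylase (0.0434), with log2 fold changes of 1.02 and 1.08. For *Mapk3* they were *Pja1* (0.0392) and *Arhgef1* (0.0412). The nearest to *Nras* was *Rbbp7* (0.0229), and the nearest to *Hras* was *Hspa8*, which encodes a constitutive heat shock chaperone (0.0312). *Araf* was nearest to *Tsta3* (0.0413), *Map2k1* to *Gars* (0.0381) and *Braf* to *Nxph3* (0.0577). These are likenesses over 6 libraries of 1 experiment and carry no test.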
